A study of Homo sapiens with 2 samples.

Results

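The replication-dependent histone genes are the short genes on chromosomes 1 and 6 that supply the linker histone H1 and the core histones H2A, H2B, H3 and H4 during DNA replication. They were taken by symbol from a RefSeq table of the human genome (GRCh38.p14): protein-coding genes named H2AC, H2BC, H3C or H4C with a number, or H1-1 to H1-6. The rule found 68 of 19974 protein-coding genes, namely 6 of H1, 17 of H2A, 18 of H2B, 13 of H3 and 14 of H4. Their median length was 494.5 bp, against 24170.5 bp over all protein-coding genes, and 60 of them were at most 1 kb long. The other annotated entries were longer, among them H3C4 (2510 bp), H3C6 (3296 bp) and H2BC18 (29682 bp). An annotated start or end of such an entry may not be that of the histone gene itself. Open chromatin was profiled by ATAC-seq, in which the transposase Tn5 cuts accessible DNA and adds sequencing adapters to it, with a transposase purified in the submitters' laboratory. The compared lines were J76, a T cell leukemia line derived from Jurkat that lacks both T cell receptor chains, and 293T (T293 in the sample labels), an embryonic kidney line that carries adenoviral early genes and the SV40 large T antigen. Both were taken in exponential growth, with 50000 cells per reaction and no treatment named in the labels, and each line gave 1 library and 1 list of peaks. With 1 library per line no difference between the lines had a replicate check, so counts and values are given side by side with no test.

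Histone mRNA is made in bulk as cells enter S phase, because newly replicated DNA has to be packaged at once. The genes lie close together, many of them in divergent pairs with a shared promoter region, and they gather in nuclear histone locus bodies with the coactivator NPAT, a substrate of cyclin E and CDK2. Their canonical mRNAs lack introns and end in a stem-loop bound by SLBP in place of a poly(A) tail. The class promoters carry different elements: an octamer bound by POU2F1 at H2B genes, a core element bound by HINFP at H4 genes, and the element AAACACA at H1 genes.

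Promoter windows of 300 bp, from 250 bp before to 50 bp after the annotated start, were present in the RefSeq table (GRCh38.p14) for 63 of the 68 genes. The first set below shows a gene with a promoter window for each class, so that the classes can be compared letter by letter. The highest gene-end peak of each gene shown had the best mean rank over both lists, alone or in a tie. For H2BC5 in both lines and for H3C13 in 293T that peak does not overlap the window shown. In H4 the gene H4C3 ranked above H4C4. Capitals mark the letters of 6 elements searched on either strand: the TATA box letters TATAAA, the CCAAT box, the octamer ATTTGCAT, the H4 core GGTCCG, the H1 box AAACACA and the GC box GGGCGG. The windows, each written 5′ to 3′ on the strand of its gene, are chr6:26056421-26056720 (minus strand) for H1-2, chr6:27838326-27838625 (minus) for H2AC15, chr6:26157871-26158170 (plus) for H2BC5, chr1:149813644-149813943 (minus) for H3C13 and chr6:26189063-26189362 (minus) for H4C4.
H1-2: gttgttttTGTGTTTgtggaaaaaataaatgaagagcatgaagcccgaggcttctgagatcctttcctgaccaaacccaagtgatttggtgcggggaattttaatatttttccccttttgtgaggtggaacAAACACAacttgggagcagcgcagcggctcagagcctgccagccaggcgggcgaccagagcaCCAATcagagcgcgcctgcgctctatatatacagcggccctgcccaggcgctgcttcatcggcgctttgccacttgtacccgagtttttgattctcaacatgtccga
H2AC15: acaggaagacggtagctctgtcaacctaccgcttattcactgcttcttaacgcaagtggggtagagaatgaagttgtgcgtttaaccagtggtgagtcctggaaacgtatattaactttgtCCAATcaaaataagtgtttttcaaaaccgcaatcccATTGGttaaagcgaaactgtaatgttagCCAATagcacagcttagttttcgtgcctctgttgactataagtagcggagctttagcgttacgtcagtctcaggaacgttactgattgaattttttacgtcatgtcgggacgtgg
H2BC5: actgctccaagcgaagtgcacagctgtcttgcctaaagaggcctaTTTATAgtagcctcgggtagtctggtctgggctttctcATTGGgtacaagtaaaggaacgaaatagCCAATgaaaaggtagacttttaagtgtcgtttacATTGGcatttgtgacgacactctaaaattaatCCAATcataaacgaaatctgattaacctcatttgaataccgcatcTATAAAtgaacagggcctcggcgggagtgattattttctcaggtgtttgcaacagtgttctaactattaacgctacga
H3C13: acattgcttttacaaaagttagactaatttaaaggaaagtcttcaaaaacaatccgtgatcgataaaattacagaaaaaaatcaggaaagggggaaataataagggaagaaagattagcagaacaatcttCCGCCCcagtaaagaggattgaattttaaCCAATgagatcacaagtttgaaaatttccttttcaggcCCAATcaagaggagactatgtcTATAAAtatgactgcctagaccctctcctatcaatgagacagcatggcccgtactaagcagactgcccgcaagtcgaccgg
H4C4: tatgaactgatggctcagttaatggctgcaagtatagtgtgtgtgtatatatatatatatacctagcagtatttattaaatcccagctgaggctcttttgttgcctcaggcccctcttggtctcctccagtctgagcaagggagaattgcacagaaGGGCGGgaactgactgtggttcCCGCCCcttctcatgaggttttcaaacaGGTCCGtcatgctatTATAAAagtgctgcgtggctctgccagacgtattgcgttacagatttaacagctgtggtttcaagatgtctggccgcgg
In H4C4 the core letters GGTCCG began at -44 and TATAAA at -29 from the start, whereas H1-2 held AAACACA at -119 and, read on the other strand, at -242. H2BC5 held CCAAT letters at 4 places.

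A second set shows the first genes by position that had no peak near either end in either line. They are the divergent pair H2AC1 and H2BC1, which encodes the testis histones TH2A and TH2B, and the linker histone gene H1-1. Their windows are chr6:25726513-25726812 (minus) for H2AC1, chr6:25726527-25726826 (plus) for H2BC1 and chr6:26017738-26018037 (minus) for H1-1.
H2AC1: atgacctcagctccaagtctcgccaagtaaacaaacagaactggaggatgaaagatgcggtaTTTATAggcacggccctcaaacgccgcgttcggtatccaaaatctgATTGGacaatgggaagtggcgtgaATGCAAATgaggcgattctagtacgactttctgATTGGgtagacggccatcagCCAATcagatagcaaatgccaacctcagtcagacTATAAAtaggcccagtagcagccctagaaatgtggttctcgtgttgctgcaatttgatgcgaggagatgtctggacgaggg
H2BC1: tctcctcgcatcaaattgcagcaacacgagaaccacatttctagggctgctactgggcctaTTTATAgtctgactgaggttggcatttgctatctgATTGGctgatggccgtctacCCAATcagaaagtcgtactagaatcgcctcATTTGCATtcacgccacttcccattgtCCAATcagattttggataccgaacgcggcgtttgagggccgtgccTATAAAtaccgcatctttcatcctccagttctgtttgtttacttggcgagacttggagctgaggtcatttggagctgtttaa
H1-1: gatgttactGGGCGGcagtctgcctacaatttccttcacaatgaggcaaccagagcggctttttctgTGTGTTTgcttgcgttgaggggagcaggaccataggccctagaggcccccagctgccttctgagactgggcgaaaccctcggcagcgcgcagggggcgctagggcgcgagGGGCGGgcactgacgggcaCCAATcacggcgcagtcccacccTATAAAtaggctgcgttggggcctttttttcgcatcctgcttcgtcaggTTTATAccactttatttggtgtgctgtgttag
In these windows TATAAA began at -31 in H2AC1, at -32 in H2BC1 and at -31 in H1-1, while CCAAT was present in all 3, and the octamer began at -118 in H2AC1 and at -104 in H2BC1. The windows of H2AC1 and H2BC1 overlap in the genome, so most of their matches are the same bases read on opposite strands.

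Over all 63 windows, TATAAA was found in 41 (65.1%), against 9.75% of the 15813 protein-coding promoters, and CCAAT in 54 (85.7%), against 36.4%. Limiting TATAAA to first bases from -40 to -20 left 34 of 63 histone windows (54%) and 4.19% of all promoters. The octamer ATTTGCAT was present in 14 of 18 H2B and 11 of 16 H2A windows, in 1 of 11 H3 windows, in 0 of 6 H1 and 0 of 12 H4 windows, and in 1.72% of all promoters. These counts are not independent, because the windows of divergent H2A and H2B pairs overlap in the genome. Many octamers of H2A windows are the same bases as in the H2B partner, such as that at -192 in H2AC8 and at -48 in H2BC8. The H3 match is that of H3C4, whose window is the window of H2AC7. GGTCCG was present in 11 of 12 H4 windows, where it began between -47 and -44, against 14.5% of all promoters anywhere in the window and 0.696% at first bases from -50 to -40. AAACACA was present in 6 of 6 H1 windows and in 4.27% of all promoters. CCAAT was present in each H1, H2A, H2B and H3 window but in 3 of 12 H4 windows. GGGCGG, the GC box, was found in 17 of 63 histone windows (27%), against 58.3% of all promoters. The histone windows had a median GC content of 43% and a median of 11 CpG dinucleotides, against 62.7% and 22 over all promoters. Among the 10 genes with no peak near an end, 6 held the TATA box, 9 the CCAAT box and 5 the octamer. Among the 45 windows of genes with a peak in both lines, 30 held the TATA box, 37 the CCAAT box and 18 the octamer. A match is a run of letters and not a site shown to be bound, and overlaps between elements were not removed.

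**Figure D1:**
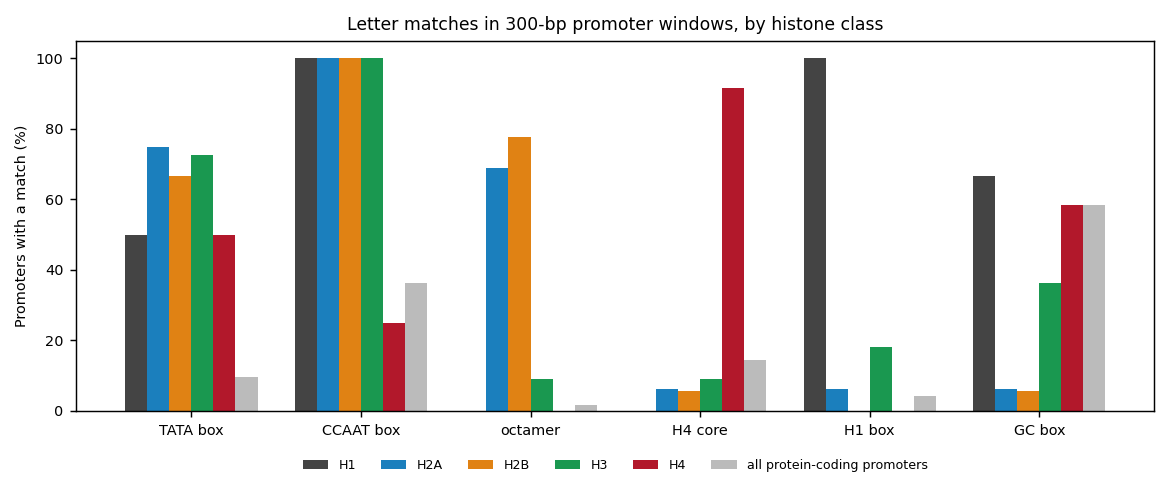
Share of promoter windows (y axis, percent) with at least 1 match on either strand to each of 6 elements (x axis), for the 5 histone classes and for 15813 protein-coding promoters. The H4 core bar stands at 11 of 12 H4 windows and the H1 box bar at 6 of 6 H1 windows. The octamer occurs in H2A and H2B windows, where divergent pairs often hold the same bases because their windows overlap.

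A gene had a gene-end peak if a peak of the list overlapped 1 kb either side of either gene end. In J76 56 of the 68 histone genes had a gene-end peak (82.4%), against 64.6% of all protein-coding genes, and in 293T 50 had one (73.5%), against 69.7%. A gene-end peak was present in both lines at 48 histone genes (70.6%), against 60.7% of all genes, and in neither line at 10 (14.7%), against 26.3%. In J76 alone there were 8 (11.8%), against 3.94% of all genes, and in 293T alone there were 2 (2.94%), against 9.09%. Genes of at most 3 kb outside the histone set were a lower background, with 38.4% in J76, 38.8% in 293T, 32.2% in both lines, 6.29% in J76 alone, 6.67% in 293T alone and 54.9% in neither. A crowded neighbourhood gave a higher one: of other genes with another gene end within 2 kb, as 52 of the 68 histone genes have, 79.1% had a gene-end peak in J76, 82.3% in 293T, 76.4% in both lines, 2.7% in J76 alone, 5.86% in 293T alone and 15% in neither. Since neighbours share peaks, the 56 genes in J76 rested on 45 distinct peaks and the 50 in 293T on 42. In J76 20 of those peaks touched a single histone gene, 23 touched 2 and 2 touched 3, and in 293T 18 touched a single gene, 21 touched 2 and 3 touched 3.

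**Figure D2:**
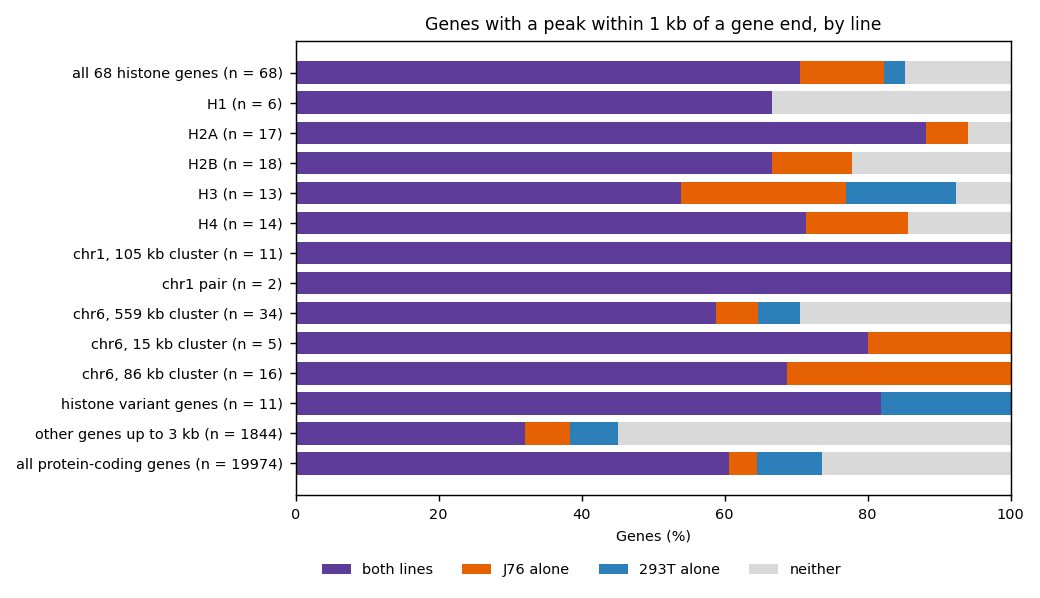
Share of genes (x axis, percent) with a gene-end peak in both lines, in J76 alone, in 293T alone or in neither, for the histone genes as a whole, by class and by cluster, and for histone variant genes, other genes of at most 3 kb and all protein-coding genes. The neither segment of the histone genes lies wholly in the 559 kb cluster of chromosome 6, and the J76 alone segment is widest in the 86 kb cluster.

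Gaps over 500 kb divide the 68 genes into 5 clusters. The cluster at chr1:149782689-149887965 holds 11 genes, and all 11 had a gene-end peak in both lines, as had both genes of the small pair at chr1:228457364-228458558, H2AC25 and H2BC26. The largest cluster, chr6:25726063-26285534, spans 559 kb and holds 34 genes, of which 20 had a gene-end peak in both lines, 2 in J76 alone, 2 in 293T alone and 10 in neither. All 10 genes without a gene-end peak belong to it. In the cluster chr6:27132316-27147562, 4 of 5 genes had one in both lines and 1 in J76 alone. In the cluster chr6:27807479-27893891, all 16 genes had a gene-end peak in J76 and 11 had one in 293T, so 5 of the 8 genes with a peak in J76 alone lie within 86.4 kb of each other. These 5 genes rest on fewer sites, because H2AC14 and H2BC14 share 1 J76 peak and H3C11 and H4C13 share theirs. That cluster held 11 peaks in J76 and 8 in 293T. In the order above, the other clusters held 7 in J76 and 10 in 293T, 1 and 1, 27 and 28, and 5 and 5. Chromosome 6 as a whole held 3481 peaks in J76 and 6203 in 293T.

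The genes with a gene-end peak in J76 alone were of every core class. Of the H3 genes, H3C8 had a J76 peak of fold 5.52 at chr6:26270936-26271799, over 96.4% of the gene, and the nearest 293T peak lay 13546 bp from the gene. Fold is the authors' enrichment over background at the peak summit, and the lists were not scaled to each other. H3C12 had a J76 peak of fold 3.14 at chr6:27890370-27891206, with the nearest 293T peak 1911 bp away. H3C11 shares its J76 peaks with the H4 gene H4C13: chr6:27872652-27873717, of fold 5.78, covers H4C13 whole, and chr6:27871905-27872566, of fold 4.27, lies over H3C11. The nearest 293T peak was 6042 bp from H3C11 and 7345 bp from H4C13. The other H4 gene of this kind, H4C9, was covered whole by a J76 peak of fold 5.78 at chr6:27139085-27140171, and the nearest 293T peak was 4523 bp away. The divergent pair H2AC14 and H2BC14 lay under 1 J76 peak of fold 4.4 at chr6:27813995-27815183, and no 293T peak came nearer than 3708 bp to H2AC14. The H2B gene H2BC10 had the lowest fold among the highest peaks of these 8 genes, 2.94, with a −log10 q of 8.72 and a width of 356 bp. The depth of both libraries is unknown, so a missing 293T peak does not show that these genes were closed there.

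Both genes with a gene-end peak in 293T alone encode H3 and lie in the 559 kb cluster. H3C6 had a 293T peak of fold 9.77 at chr6:26223244-26224508, with its summit 93 bp upstream of the annotated start. This peak covers 10% of the annotated entry of 3296 bp, whose start may not be that of the histone gene itself. It was the tallest 293T peak at any of the 68 genes, and the nearest J76 peak was 5724 bp away. H3C7 had a 293T peak of fold 5.01 and a −log10 q of 9.2 at chr6:26249677-26250453, reaching from 182 to 958 bp downstream of the start, and the nearest J76 peak was 14987 bp away.

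The 10 genes with no gene-end peak in either line included the testis genes H2AC1, H2BC1 and H1-6, the last of which encodes the testis linker histone H1t. H2AC1 and H2BC1 lay in a J76 stretch without peaks of 472 kb, chr6:25490414-25962101, and in a 293T stretch of 53.5 kb, chr6:25720780-25774264. H1-6 lay 2627 bp from the nearest J76 peak and 2574 bp from the nearest 293T peak. The others were H1-1 of the linker class, H2BC3, H2BC6 and H2BC9 of H2B, H3C3 of H3, and H4C6 and H4C7 of H4. H2BC3 and H3C3 are neighbours and shared a stretch without peaks of 21.1 kb in each line, chr6:26033793-26054930 in J76 and chr6:26033861-26054983 in 293T. H4C6, H4C7, H3C7 and H2BC9 lay together in a J76 stretch without peaks of 35.4 kb, which in 293T was broken by the H3C7 peak. H2BC9 was the nearest to the limit of 1 kb, with a 293T peak 1161 bp away.

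Of the linker histone genes, 4 of 6 had a gene-end peak in both lines. H1-2 had folds of 6.48 in J76 and 6.08 in 293T, H1-3 of 5.63 in J76 and 8.06 in 293T, and H1-4 of 4.11 in J76 and 4.44 in 293T. The peak of H1-4 also covers the start of the neighbouring gene H2BC5, and the lines differ in where its summit lay: 1828 bp downstream of the H1-4 start and 36 bp downstream of the H2BC5 start in J76, but 1 bp upstream of the H1-4 start in 293T. H1-5 and H2AC16 form a tail-to-tail pair that was counted in both lines through different peaks. The J76 peak chr6:27866699-27867680, of fold 4.57, covers H1-5 and ends 901 bp short of H2AC16, while the 293T peak chr6:27864860-27865803, of fold 9.06, covers H2AC16 and ends 989 bp short of H1-5. Counted by peaks over the gene itself, H1-5 had a peak in J76 alone and H2AC16 in 293T alone.

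Of the H2A genes 15 of 17 had a gene-end peak in both lines, the largest share of the 5 classes, and of the H2B genes 12 of 18. The table of starts holds 11 divergent H2A and H2B pairs whose starts lie 194 to 248 bp apart. A single peak covered both starts in 10 of the 11 pairs in J76 and in 9 in 293T. The exception in both lines was the testis pair H2AC1 and H2BC1, and in 293T also H2AC14 and H2BC14. Folds of these shared peaks ran from 3.41 to 6.87 in J76 and from 4.19 to 6.35 in 293T, and widths from 1112 to 2759 bp in J76 and from 1026 to 2594 bp in 293T. All these widths exceed the distance between the starts, and the exceptions had no gene-end peak in that list. The count of shared peaks therefore mostly restates that a peak was present. Other divergent gene pairs at like spacing were not counted, so whether such sharing is particular to histone pairs was not tested. H2AC15 and H2BC15, the pair with the tallest J76 peak, had folds of 6.87 in J76 and 5.49 in 293T. H2AC7 and H2BC7 had 3.41 in J76 and 6.35 in 293T, at the low end of the pairs in J76 and at the high end in 293T. H2AC12 and H2BC12 had 5.92 in J76 and 5.3 in 293T, and H2AC8 had 5.84 in J76 and 5.43 in 293T. The highest H2B folds were those of H2BC5, 7.95 in J76 and 8.35 in 293T, but that peak lies beyond the far end of the annotated gene, with its summit 13893 bp from the start in J76 and 13883 bp in 293T. H2BC21 had 3.83 in J76 and the lowest H2B fold in 293T, 4.19, on a peak it shares with H2AC20.

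The H3 genes differed most between the lists, with 7 of 13 in both lines, 3 in J76 alone and 2 in 293T alone. Beside the genes above, H3C1 had folds of 5.05 in J76 and 5.89 in 293T, and H3C13 had 5.16 in J76 on a peak it shares with the H2B gene H2BC18. In 293T the peak over H3C13 itself had a fold of 4.95, and the higher peak counted for it, of 5.84, lies over the H2BC18 start beside it. H3C4 had 3.41 in J76 and 6.35 in 293T, on the peak of H2AC7, with which it shares an annotated start. H3C10 had the lowest fold of any of the 68 genes in J76, 2.26, and 4.19 in 293T. H3C4 also had a weaker J76 peak, chr6:26196784-26197498 of fold 3.21, at its far end, with none there in 293T. The annotated H3C4 entry is 2510 bp long and contains H2AC7 whole. The count of H3C4 in both lines therefore rests on the H2AC7 peak, and peaks at its far end were found in J76 alone.

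Of the H4 genes 10 of 14 had a gene-end peak in both lines, and this class had the highest median fold among the core histones, 5.98 in J76 and 6.25 in 293T. H4C3 had the tallest peak of the whole set in J76, with 10.6 in J76 and 8.44 in 293T, at chr6:26103643-26104785 in J76 and chr6:26103616-26104838 in 293T. H4C4 had 8.05 in J76 and 8.36 in 293T, H4C11 had 7 in J76 and 7.98 in 293T, and H4C12 had 7.5 in J76 and 6 in 293T. H4C2 was the lowest, with 3.74 in J76 and 3.64 in 293T. H4C3 and H4C4 stood at the top and H4C2 at the bottom of the class in both lists.

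**Figure D3:**
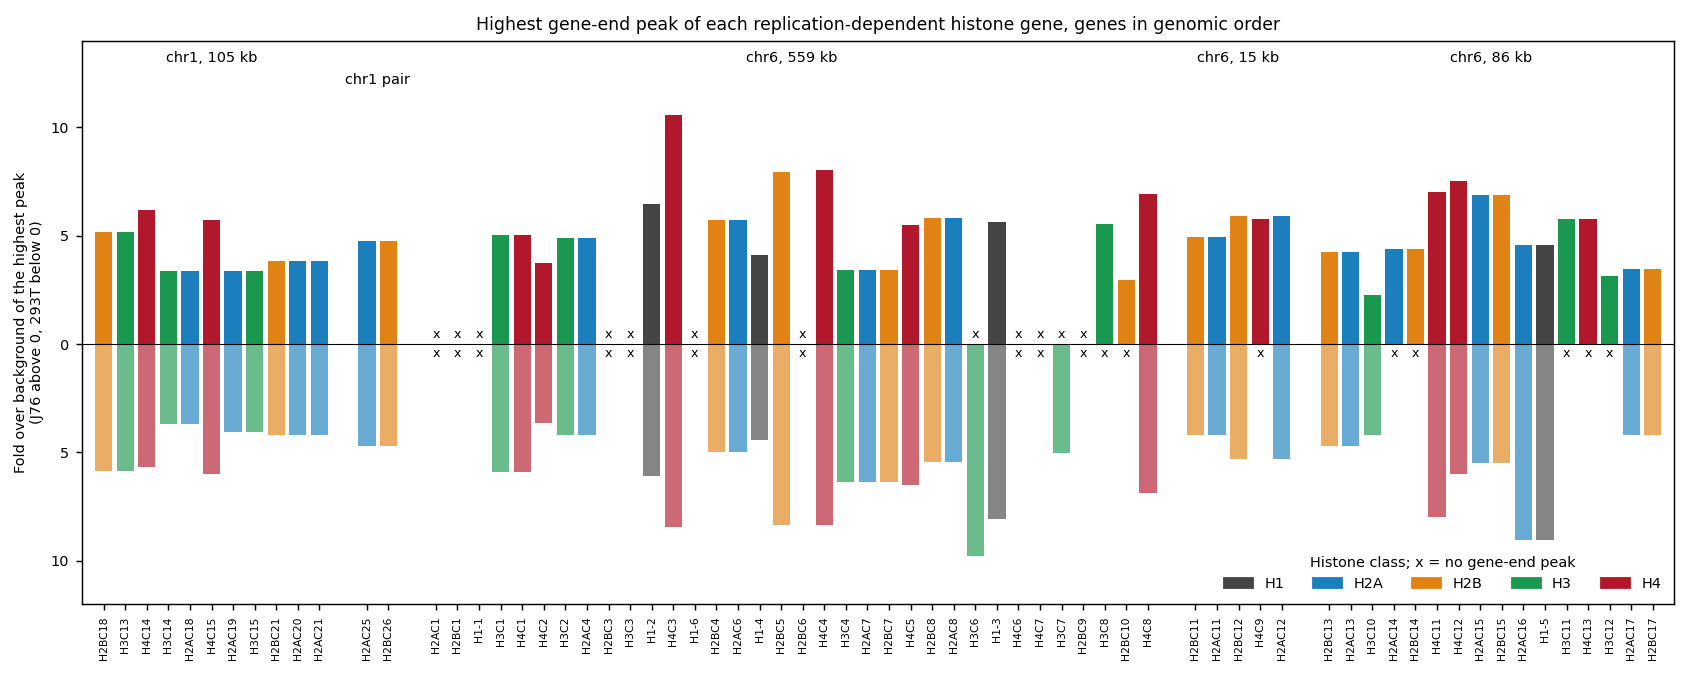
Fold of the highest gene-end peak of each of the 68 histone genes (y axis, J76 upward and 293T downward), with genes in genomic order along the x axis, colours for the histone classes and a cross where a list has no gene-end peak. Neighbouring genes of equal height share a peak, H4C3 stands out in J76 at 10.6 and H3C6 in 293T at 9.77, and crosses on both sides occur in the 559 kb cluster alone.

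Peaks at the histone genes were wide, and of modest fold beside the gene-end peaks of all genes in the same list. Their fold was not low for the list as a whole. Distinct peaks at histone genes had a median fold of 4.77 in J76 and 4.99 in 293T. All peaks on the autosomes and chromosome X had medians of 4.83 in J76 and 4.38 in 293T. The median fold per gene was 4.92 in J76 (order-statistic 95% interval 4.4 to 5.63 over 56 genes) and 5.37 in 293T (4.69 to 5.89 over 50 genes), against medians of 8.45 in J76 and 7.79 in 293T over all genes with a gene-end peak. Other genes of at most 3 kb lay between, with medians of 6.83 in J76 and 6.57 in 293T. The intervals treat genes as independent, which genes that share a peak are not. Only H4C3 reached the all-gene median in J76, while 8 genes did in 293T (H3C6, H2AC16, H1-5, H4C3, H4C4, H2BC5, H1-3 and H4C11). Of these, H1-5 was counted through the H2AC16 peak and H2BC5 through the peak beyond its far end, and neither peak overlaps the gene. The median width of the highest peak was 1291.5 bp in J76 and 1663 bp in 293T, against 1061 bp in J76 and 1197 bp in 293T over all genes. Those medians count a shared peak once per gene. With each distinct peak counted once, the excess was smaller, 1143 against 973 bp in J76 and 1264 against 1078 bp in 293T. Of the distinct peaks at histone genes 66.7% were at least 1 kb wide in each line, against 47.7% of all gene-end peaks in J76 and 55.9% in 293T. The widest peaks lay on chromosome 1, over H3C14 and H2AC18, with 2912 bp in J76 and 2942 bp in 293T and folds of 3.37 in J76 and 3.71 in 293T. In the other clusters the widest peaks were those over H2AC25 and H2BC26 (1676 bp in J76 and 2364 bp in 293T), over H1-4 and the start of H2BC5 (2437 bp in J76 and 2824 bp in 293T), and over H2AC15 and H2BC15 (1804 bp in J76 and 2594 bp in 293T). In the 15.2 kb cluster H2AC11 and H2BC11 had the widest J76 peak (1724 bp) and H2AC12 and H2BC12 the widest 293T peak (1922 bp). The mirror copies of H3C14 and H2AC18 on chromosome 1, H2AC19 and H3C15, had similar values, a fold of 3.37 and a width of 2886 bp in J76 and a fold of 4.06 and a width of 2870 bp in 293T. The promoter windows of H2AC18 and H2AC19 share 99.6% of their 20-base words, those of H3C14 and H3C15 share 98.6%, and those of H4C14 and H4C15 are identical, while those of H4C11 and H4C12 on chromosome 6 differ at 5 of 300 bases. The sources used here do not say how reads were divided between such copies, so the folds of these copies are uncertain.

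**Figure D4:**
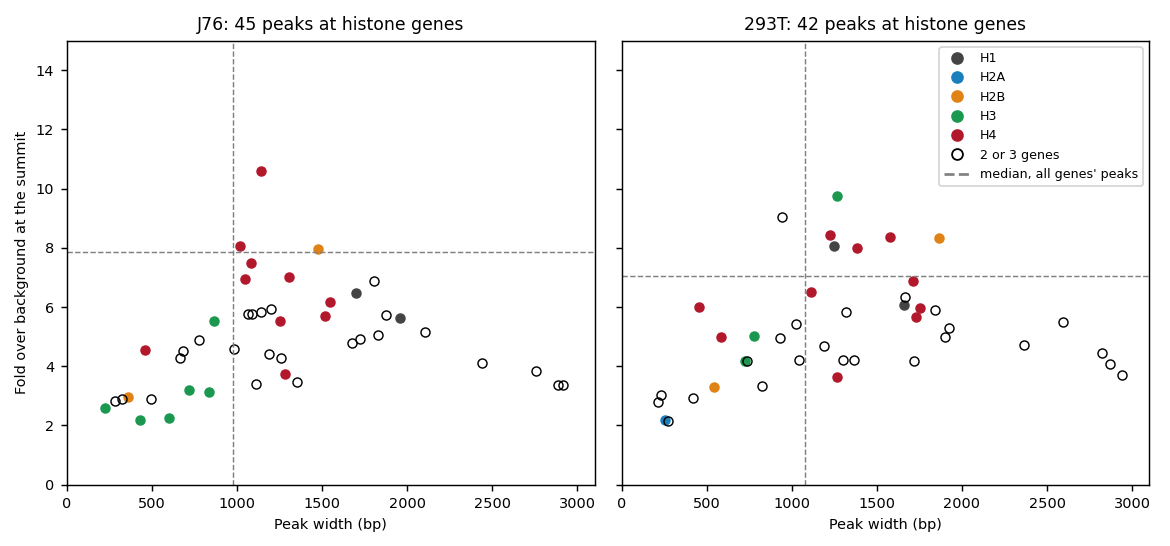
Width (x axis, bp) and fold at the summit (y axis) of each distinct peak at histone genes, 45 in J76 on the left and 42 in 293T on the right, coloured by class where a peak touches 1 gene and open where it touches 2 or 3. Dashed lines are the medians of all gene-end peaks of protein-coding genes in that list. In each panel most histone peaks fall below the fold line, and most fall to the right of the width line. In 293T the peaks that do both are not a majority.

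Where both lines had a gene-end peak, the highest peaks mostly overlapped, but their summits did not always coincide. The highest peaks of the lines overlapped at 46 of 48 genes, and the exceptions were H1-5 and H2AC16. The median distance between summits was 36 bp, with 27 genes within 100 bp and 39 within 250 bp. Among overlapping peaks, summits lay 1545 bp apart at H3C14 and H2AC18 and 1829 bp apart at H1-4. Genes that share a peak were counted separately here. No matching distances over all genes are given, so whether summits at histone genes differ from those elsewhere was not tested. Of the 45 J76 peaks at histone genes 34 overlapped a 293T peak (75.6%, Wilson 95% interval 61.3 to 85.8), against 87.8% of all J76 gene-end peaks, and 37 of the 42 peaks in 293T met a J76 peak (88.1%, 75 to 94.8), against 76.9%. These intervals cover counting error only.

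Peaks at gene starts could be placed by strand for 50 genes in J76 and 46 in 293T. The peak covered the whole gene at 32 of 50 histone genes in J76 (64%) and at 29 of 46 in 293T (63%), against 0.486% in J76 and 0.47% in 293T of all genes with a peak at the start. Among genes of at most 1 kb the peak covered the whole gene at 74.4% of histone genes and 20.4% of other genes in J76, and at 76.3% of histone genes and 28% of other genes in 293T. Summits of H4 genes lay mostly inside the gene, at a median of 91.5 bp downstream of the start in J76 and 95 bp in 293T. They fell 1 to 250 bp downstream at 8 of 10 H4 genes in J76 and 5 of 8 in 293T, against 11.8% of all genes in J76 and 12.2% in 293T, whose median summit was at -52 bp in J76 and -46 bp in 293T. The H4 exceptions were H4C4 (-23 bp) and H4C2 (822 bp) in J76 and H4C8 (-85 bp), H4C15 (253 bp) and H4C2 (855 bp) in 293T. Summits of H2B genes lay upstream, at medians of -147.5 bp in J76 and -197.5 bp in 293T, and those of H2A genes close to the start, at 28 bp in J76 and 0.5 bp in 293T. Paired H2A and H2B genes mostly share 1 peak, so many of these summits were counted from both sides. The medians also include genes outside the pairs, such as H2AC21 and H2BC18, and are not mirror values.

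**Figure D5:**
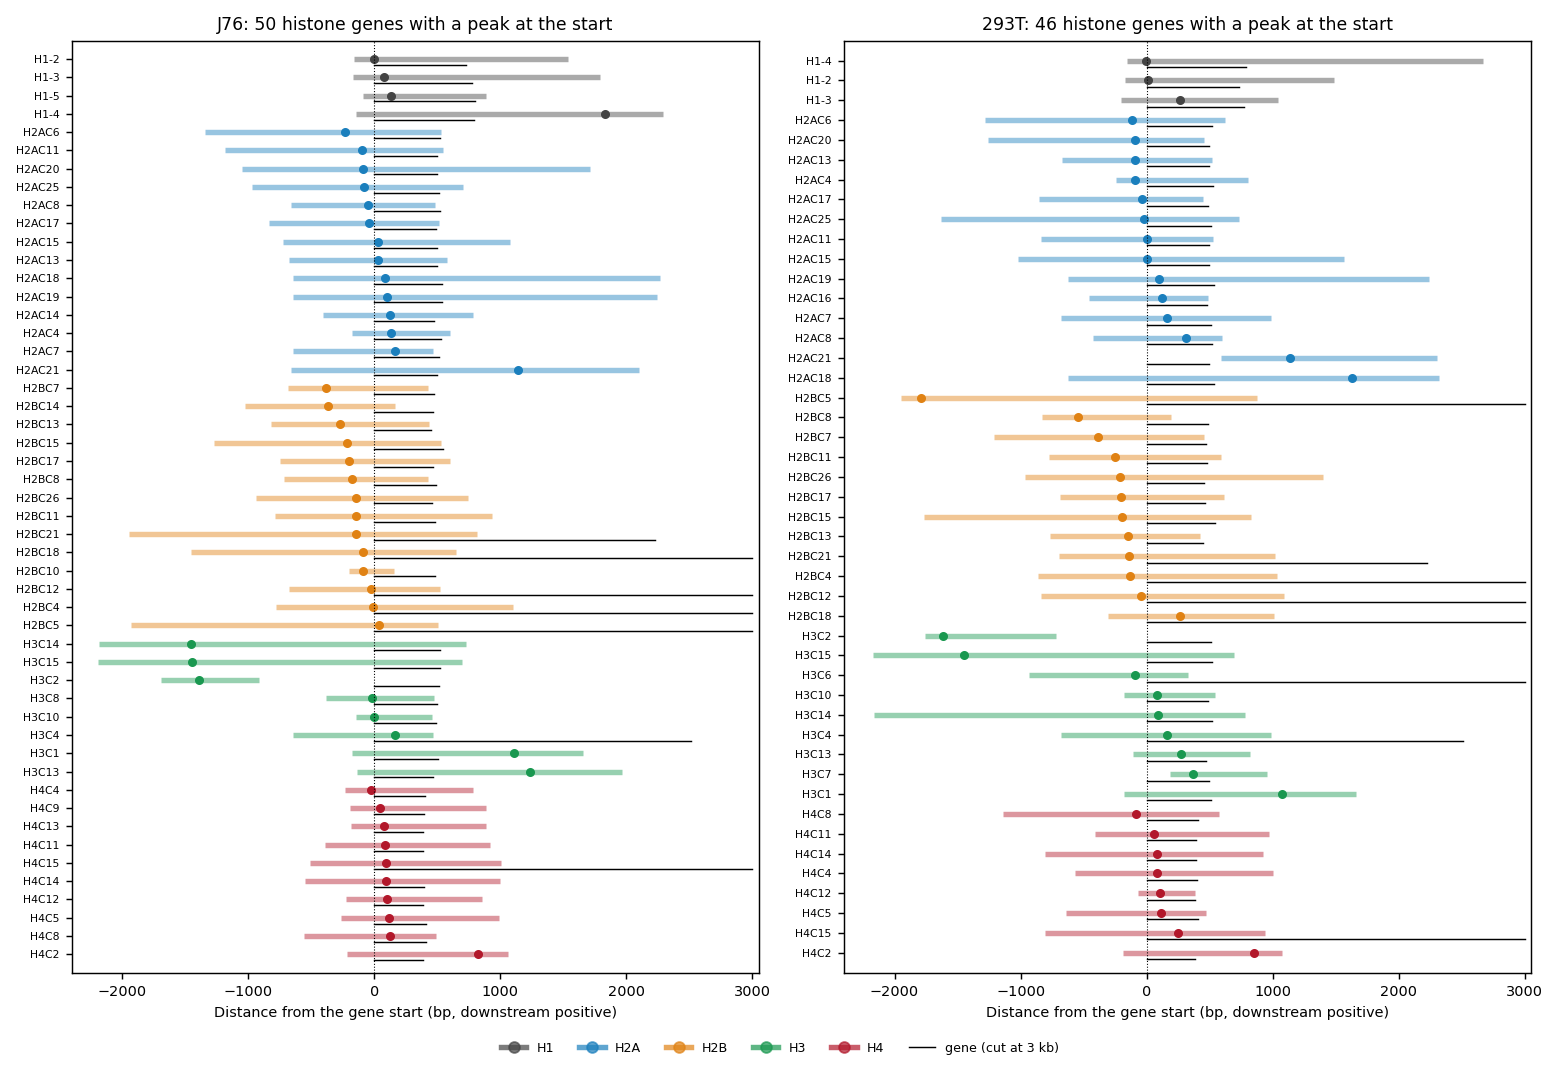
Extent of the highest peak at the start of each histone gene (coloured bars), its summit (dots) and the gene itself (black lines) by distance from the start (x axis, bp), with J76 on the left and 293T on the right and genes grouped by class. H4 summits gather just downstream of the start, H2B summits upstream of it, and most bars run over the whole black line.

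Histone genes and factors outside the clusters were read in the same way. Of all protein-coding genes, 60.7% had a gene-end peak in both lines, 3.94% in J76 alone, 9.09% in 293T alone and 26.3% in neither. Of 11 replication-independent and variant histone genes 9 had a gene-end peak in both lines and 2 in 293T alone, MACROH2A2 (fold 7.81) and H2AJ (3.52), with median folds of 7.2 in J76 and 6.35 in 293T. All 19 of the listed factors of histone gene transcription and mRNA processing had a gene-end peak in both lines, among them NPAT (7.64 in J76 and 6.76 in 293T), HINFP (11.6 in J76 and 12.2 in 293T), POU2F1 (6.02 in J76 and 4.53 in 293T) and SLBP (8.5 in J76 and 6.13 in 293T). Of the 8 other protein-coding genes inside the clusters, 2 had a gene-end peak in both lines, 1 in J76 alone (HFE, of iron uptake, fold 5.02) and 5 in neither. H4C16, a histone H4 gene on chromosome 12 and outside the clusters, had folds of 5.83 in J76 and 4.87 in 293T. Cell type markers fitted the line labels for the most part, with 9 of 10 T cell genes in J76 alone and 8 of 10 kidney and epithelial genes in 293T alone. Of these, the neighbours KRT8 and KRT18 had the same 293T fold (6.25) and peak width (592 bp), so the 8 genes are not independent. CD5 and PAX8 had a gene-end peak in neither line, and PAX2 had one in J76 alone.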

How the data were processed

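Each library gave 1 narrowPeak list, deposited by the authors. Per the layout of these deposited files, the columns are the authors' integer score, the fold over background at the summit (a linear ratio), −log10 of the p-value and −log10 of the q-value. Per the submitters' processing notes, Bowtie2 and MACS2 were used. Not given in the sources used here are their versions and settings, duplicate removal, the shift of cut positions, and the genome build. As the contig names are those of GRCh38, positions are printed as GRCh38, counted from 1. The lists hold 58730 peaks in J76 and 84951 in 293T on the autosomes and chromosome X, and no read counts, so depth is unknown.

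Genes, starts and promoter windows came from RefSeq (GRCh38.p14). A gene-end peak overlapped 1 kb either side of a gene end, and peaks of the lines were shared at 1 bp of overlap. Fold, −log10 q and score, as the authors deposited them, were compared between peaks of the same list alone. The genes and lists were chosen with earlier results of these data known. Genes were named by rule: each gene with a peak in 1 line only or in neither, per class the 3 highest folds and the lowest of each list, and per cluster the widest peaks. Any other gene named was picked with its values known. Settings varied in turn were the limit on −log10 q (5 or 10), equal numbers of peaks, windows of 500 bp or 2.5 kb, summits in place of peaks, gene starts alone, other overlaps, and leaving out identical promoters. The counting was tested on simulated peaks. Python 3.11.15 with pandas 2.3.3, numpy 2.4.6 and scipy 1.17.1 was used. A planned description of the encoded proteins was not run.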

Additional observations from a re-analysis of the deposited data

How the results depend on the processing

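When lists were limited to a −log10 q of 5 or more, or cut to equal numbers of peaks, the status of 68 of the 68 genes was the same. A −log10 q of at least 10 left 1 histone gene with a gene-end peak in 293T alone in place of 2, because H3C7 and H2BC10 lost their peaks. With the summit within 1 kb there were 5 in 293T alone, and the status of 62 genes was the same. Of the 293T peaks at histone genes 69.05% overlapped a J76 peak at a reciprocal overlap of 50%, and 66.67% had a summit within 250 bp of one, in place of 88.1%. Among the 20000 highest peaks of each list the status of 62 genes was the same, while H2BC8, H2AC8 and H4C12 then had a peak in J76 alone, H3C10 in 293T alone, and H3C7 and H2BC10 in neither. With a window of 2.5 kb H1-1 and H3C12 had a peak in both lines and H2BC9 in 293T alone. Counting peaks over the gene itself, an alternative chosen after seeing the data, gave 46 genes in both lines, 9 in J76 alone, 3 in 293T alone and 10 in neither. All other counts, shares and medians under these alternatives stayed within 1.5 times the main count or within the interval of the main value. No paired analysis was possible because each line has 1 library. A peak caller's threshold acts on a depth that is unknown here, so genes near it, such as H2BC10 and H3C7, are the least certain.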
